A study of Mus musculus with 34 samples.

Results

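Genes of neurogenesis and of newborn neurons, 9 in all, were followed through the brain of the 3-day-old mouse: the proneural factors Neurog1, Neurog2 and Neurod4, the helix-loop-helix factors Nhlh1 and Nhlh2, the zinc finger factor Insm1, and the genes Sox11, Dcx and Igfbpl1 of immature neurons. They were taken by name, with every probe whose accession in the array files belongs to them, and they are 9 of the 20145 genes that the array names, measured on 13 of its 26582 named probes. The brains came from 3 male C57BL/6J mice, aged 3 days, for which the labels name no treatment and no altered allele. One brain was cut in the coronal plane into 15 fractions, another in the horizontal plane into 8 and the last in the sagittal plane into 11. A fraction was 500 μm thick, except that sagittal fractions 1 and 11 each pooled 2 of that thickness. Total RNA of each fraction was hybridized once to a single-colour Agilent mouse array. A cutting direction therefore cannot be told apart from its mouse, and the spread used in the tests is the spread between neighbouring positions of 1 brain.

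Neurogenesis passes through a sequence of regulators. Proneural factors such as Neurog1, Neurog2 and Neurod4 are basic helix-loop-helix (bHLH) proteins that bind E-box DNA and commit a dividing progenitor to become a neuron. Nhlh1 and Nhlh2, which belong to the same superfamily, and Insm1 are switched on as progenitors leave the cell cycle, and Sox11, Dcx and Igfbpl1 mark the young neuron while it migrates and extends its processes. In the newborn mouse most cortical neurons have already been made. Granule cell progenitors still divide in the external layer of the cerebellum, and young interneurons still travel from the wall of the lateral ventricle to the olfactory bulb.

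The labels number the fractions without saying at which end the count starts. Along the coronal series, 12 of the 14 cerebellum marker genes were highest in fractions 1-3, 9 of the 11 olfactory bulb markers in fractions 13-15 and 8 of the 8 striatum markers in fractions 10-12. Fractions 1-3, 10-12 and 13-15 are called the cerebellar end, the forebrain level and the bulb end, as working names. The names cover part of what each block held. Of the 7 hindbrain markers 6 were also highest in fractions 1-3, and 7 of the 10 cortex and forebrain markers were highest in fractions 13-15, against 2 in fractions 10-12. Between 29598 and 37091 of the 59305 spots of an array were well above background, and no spot was saturated. Replicate spots of 1 array scattered with an SD (log2) between 0.0791 and 0.135. The arrays lay on 5 slides. Coronal fractions 1-8 lay on slide 2, and coronal fractions 9 to 15 lay on slide 3 except fraction 12 on slide 5, so that the cerebellar end shares no slide with the forebrain level or the bulb end, and only fractions 7-9 lie on both slides. Values are log2 normalized signals, that is the log2 of the background-subtracted signal less the log2 of the array's 75th percentile. A value of 0 is therefore a signal equal to that percentile. Values of one probe can be compared between fractions, but not those of one probe with another.

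Nhlh1, on probe A_55_P2140612, and Nhlh2 were both highest at the cerebellar end of the coronal series, with their steps at different levels. Sox11 was higher towards the bulb end. For that reason the stretches before the start sites of Nhlh1, Nhlh2 and Sox11 are shown. They hold the bases from 250 to 51 before the start, from RefSeq on GRCm38.p6, written 5′ to 3′ on the gene's own strand, and capitals mark the E-boxes searched. These were CAGATG, together with its reverse complement, and the palindrome CAGCTG, which do not overlap each other.
Nhlh1, chr1:172057647-172057846, reverse strand: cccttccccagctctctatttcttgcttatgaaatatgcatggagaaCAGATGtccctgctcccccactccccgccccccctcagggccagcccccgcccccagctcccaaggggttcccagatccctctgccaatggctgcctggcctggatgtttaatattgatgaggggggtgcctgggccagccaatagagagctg
Nhlh2, chr3:102009895-102010094, forward strand: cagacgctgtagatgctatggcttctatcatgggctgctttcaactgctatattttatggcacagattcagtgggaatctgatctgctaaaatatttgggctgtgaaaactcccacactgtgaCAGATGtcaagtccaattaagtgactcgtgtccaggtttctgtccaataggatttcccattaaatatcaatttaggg
Sox11, chr12:27342769-27342968, reverse strand: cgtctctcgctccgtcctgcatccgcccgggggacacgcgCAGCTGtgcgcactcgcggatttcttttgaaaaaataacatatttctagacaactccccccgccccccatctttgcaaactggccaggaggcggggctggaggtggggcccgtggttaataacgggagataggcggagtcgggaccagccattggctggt
Nhlh1 and Nhlh2 each held 1 CAGATG and no CAGCTG, and Sox11 held 1 CAGCTG and no CAGATG. Among the 32851 start sites of the RefSeq table, 12.0% held CAGATG on either strand in the same stretch and 10.3% held CAGCTG. The stretches of Neurog1, Neurog2, Neurod4 and Dcx held neither. Sequences were matched for 7 of the 9 genes, all but Insm1 and Igfbpl1.

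Nhlh1 and Nhlh2, the helix-loop-helix factors of neurons that have just left the cycle, were both highest at the cerebellar end of the coronal series and low from the forebrain level to the bulb end. For Nhlh1 this held on 1 of its 2 probes. Nhlh1 (probe A_55_P2140612) read -0.68, -1.24 and -1.85 in coronal fractions 1, 2 and 3. It read -3.14, -3.19 and -3.21 in fractions 4, 5 and 6, and lay between -4.41 and -3.24 in fractions 7 to 15. The 3 fractions of the cerebellar end stood above all 12 others, and the signal fell 5.51-fold from fraction 1 to fraction 4. At the bulb end fraction 13 was not well above background. The second Nhlh1 probe, A_55_P2058646, did not share this peak. That probe read -3.18, -3.27 and -3.32 in fractions 1, 2 and 3 and was highest in fraction 15, at -2.82. Nhlh2 (A_55_P2123902) read 0.87, 0.57 and 0.25 in fractions 1, 2 and 3, and 0.46, -0.00 and -0.07 in fractions 4, 5 and 6. It stayed between -0.49 and -0.17 in fractions 7 to 9 and then dropped to -1.59, -2.71 and -2.65 in fractions 10, 11 and 12. At the bulb end it read -2.13, -2.25 and -3.07. The step of Nhlh1 thus lay between fractions 3 and 4, and that of Nhlh2 between fractions 9 and 11.

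Insm1, the zinc finger factor that is switched on in neuronal and endocrine progenitors as they stop dividing, shared the cerebellar peak. It read 4.70, 4.03 and 3.58 in coronal fractions 1, 2 and 3. In fractions 4 to 9 it lay between 2.10 and 2.66. It rose again to 3.58 in fraction 12, between 2.81 in fraction 11 and 2.59 in fraction 13. The bulb end read 2.59, 2.78 and 2.62, below each fraction of the cerebellar end.

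**Figure D1:**
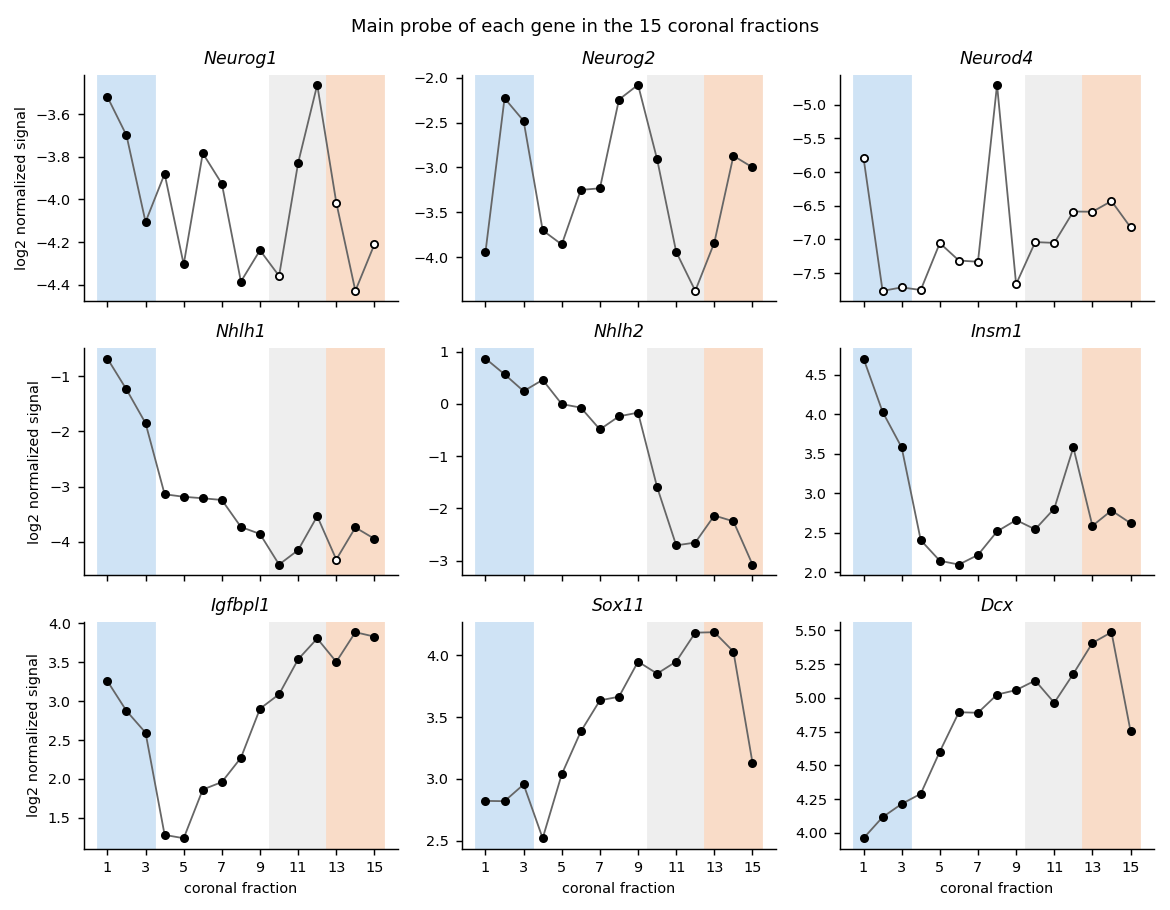
Log2 normalized signal of the main probe of each gene (y axis, with its own range in each panel) against the number of the coronal fraction (x axis); filled points are well above background, open points are not, and the blue, grey and orange bands mark fractions 1-3, 10-12 and 13-15. Nhlh1, Nhlh2 and Insm1 are highest in fraction 1, Dcx and Sox11 climb towards fractions 13 and 14 and drop in fraction 15, Igfbpl1 is lowest in fractions 4 and 5, and Neurod4 is well above background in fraction 8 alone.

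Igfbpl1, an insulin-like growth factor binding protein-like gene of immature neurons, dipped in coronal fractions 4 to 8. It was higher at the cerebellar end, and higher again from the forebrain level to the bulb end. It read 3.26, 2.87 and 2.59 in coronal fractions 1, 2 and 3, and fell to 1.28, 1.24 and 1.86 in fractions 4, 5 and 6. From there it climbed through 1.96, 2.27 and 2.90 in fractions 7, 8 and 9 to 3.09, 3.54 and 3.81 in fractions 10, 11 and 12. The bulb end held the 2 highest values of the series, 3.89 in fraction 14 and 3.83 in fraction 15, beside 3.51 in fraction 13. No value of fractions 4-6 reached the lowest of either end.

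Sox11 and Dcx ran the opposite way to the Nhlh genes. Sox11, an SRY-box factor that turns on neuronal genes, read 2.82, 2.82 and 2.95 at the cerebellar end on probe A_55_P2094721. It reached 3.85, 3.95 and 4.19 in fractions 10, 11 and 12, and 4.19, 4.03 and 3.13 in fractions 13, 14 and 15. Dcx, whose product doublecortin binds the microtubules of migrating neurons, read 3.96, 4.12 and 4.21 at the cerebellar end on probe A_52_P244349. It reached 5.13, 4.96 and 5.18 in fractions 10, 11 and 12, and 5.41, 5.49 and 4.75 in fractions 13, 14 and 15. Both genes were well above background in all 34 fractions. The last coronal fraction stood below its neighbours for both, by 1.87-fold for Sox11 and 1.66-fold for Dcx against fraction 14.

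All probes of Sox11 and Dcx showed that drop. The second Sox11 probe (A_52_P160955) fell 1.78-fold from fraction 14 to fraction 15, and the other Dcx probes fell 1.74-fold (A_52_P506493) and 1.48-fold (A_55_P2080126). Igfbpl1 changed by 1.04-fold over the same step. Marker lists changed over the same fractions, each summed as the linear normalized signals of its genes. The 10 genes of the cortex and forebrain list summed to 208 in fraction 13, 153 in fraction 14 and 82.6 in fraction 15, while the 11 genes of the olfactory bulb list summed to 28.8, 128 and 173. The oligodendrocyte lineage list rose from 17.2 to 87.3 between fractions 13 and 15, the astrocyte and radial glia list from 165 to 430 and the red blood cell list from 19.7 to 35.8. Forebrain markers thus fell towards fraction 15 as bulb and glial markers rose. The list for olfactory epithelium, a tissue that can stay attached to the bulb, gave a divided picture, with 4 of its 12 detected genes highest at the bulb end. Omp, the marker of mature olfactory sensory neurons, was highest in fraction 15 at 2.16, against block means of -2.75 to -2.37 in fractions 1 to 12. Gng13 (4.63) and Stoml3 (-3.48) were highest in fraction 15 too, with Stoml3 well above background in 1 of the 3 bulb-end fractions. Adcy3 (-1.88), Cnga2 (-2.35), Ric8b (0.94) and Gnal (4.31) had their lowest block means at the bulb end. Cyp2g1, of the epithelium's supporting cells, was well above background in 0 of 34 fractions. Against the forebrain level limma called 0 of 11 tested genes of this list, where 1.53% of all probes were higher and 1.75% lower. At an unadjusted p under 0.05, 2 were higher and 2 lower. The sum of this list, to which the brain gene Gnal adds most, lay between 33.7 and 44.9 at the bulb end and between 43.9 and 53.4 at the forebrain level. In a whole fraction fewer cells of a type and less RNA per cell cannot be told apart, and the part of these lists in the drop was not tested.

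The proneural factors themselves were dim. Neurog1 (A_55_P2100570) was well above background in 28 of 34 fractions and ranged from -4.43 to -3.46 along the coronal series, with no block of 3 fractions standing clear of the others. It was not well above background at the bulb end. With bulb values raised, where lower, to the lowest clear signal of any probe on their array, the cerebellar end was 1.29-fold brighter. The 2 groups overlapped, so this is no firm lower limit. The difference of -0.44 between bulb end and cerebellar end was not called (limma adjusted p = 0.191). It turned its sign with the normexp background correction. Neurog2 (A_51_P370615) showed separate peaks. It read -3.95, -2.23 and -2.48 in coronal fractions 1, 2 and 3, and -3.70, -3.86 and -3.25 in fractions 4, 5 and 6. A second rise to -2.24 in fraction 8 and -2.08 in fraction 9 was followed by a fall to -4.38 in fraction 12, the 1 fraction of 34 without a clear signal. Fractions 13 to 15 lay between -3.84 and -2.87. Fraction 7 (-3.23) lay level with fraction 6 (-3.25), so that fractions 7-9 were not clearly apart from fractions 4-6. The blocks 1-3, 10-12 and 13-15 overlapped.

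The comparison of the bulb end with the cerebellar end asked which of these genes differ between the ends of the brain. It was made with limma over all 33788 probes well above background in at least 3 coronal fractions, with adjustment by Benjamini and Hochberg over all of them, and Neurod4 did not pass that filter. Of the 8 genes tested, 3 were higher at the bulb end and 3 lower at an adjusted p under 0.05, where 15.3% of all probes were higher and 9.43% lower. Nhlh2 was 8.26-fold lower at the bulb end (log2 difference -3.05, SE 0.32, limma adjusted p = 7.15e-05, 3 fractions against 3). Nhlh1 was 6.72-fold lower (-2.75, SE 0.29, limma adjusted p = 8.46e-05), and Insm1 was 2.71-fold lower (-1.44, SE 0.29, limma adjusted p = 0.00416). For these 3 genes no fraction of the bulb end reached the lowest of the cerebellar end.

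In the other direction, Dcx was 2.17-fold higher at the bulb end (log2 difference 1.12, SE 0.19, limma adjusted p = 0.00186). Sox11 was 1.89-fold higher (0.92, SE 0.26, limma adjusted p = 0.0241) and Igfbpl1 1.78-fold higher (0.83, SE 0.27, limma adjusted p = 0.0436). Neurog2 (-0.35, SE 0.49) did not pass the test. The remaining Dcx and Sox11 probes passed it too, with differences of 0.64 to 1.03, although the groups overlapped for the Dcx probe A_55_P2080126. Their calls depended on the fit. That of A_55_P2080126 was lost in 8 of 15 alternatives, that of the Dcx probe A_52_P506493 in 4 and that of the Sox11 probe A_52_P160955 in 2, the slide block among them each time. The second Nhlh1 probe, A_55_P2058646, disagreed with the first. It lay between -5.33 and -2.82 along the coronal series, and its difference was -0.11 (SE 0.51). Over these fractions the cerebellum list summed to between 167 and 219 at the cerebellar end and to between 31.9 and 59.7 at the bulb end, and the cortex and forebrain list to between 11.6 and 18.0 and to between 82.6 and 208. The part of these lists in the differences was not tested.

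The slide set limits to the comparison of the ends. With the slide as a block in limma, which rests on the few fractions that bridge slides, Nhlh2 alone of the 8 genes stayed past the threshold (-3.24, adjusted p = 0.0423). Under that block Nhlh1 (-2.38), Insm1 (-1.73), Dcx (1.02) and Sox11 (0.62) kept their directions and missed the threshold, and Igfbpl1 came to 0.04. The Igfbpl1 call was also lost without any one of fractions 2, 3, 14 and 15, and that of Sox11 without any one of fractions 1, 2, 3, 13 and 14, and both were lost when each array was scaled to its median or the compared arrays were fitted alone. Quantile normalization ended the Igfbpl1 call as well (0.66, limma adjusted p = 0.0997). A normexp background correction shrank the differences of the dim genes, to -1.06 for Nhlh1 and -2.15 for Nhlh2, and both remained called.

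The forebrain level differed from the cerebellar end in much the same members. Here 5 of the 8 genes were called, 2 higher and 3 lower, where 16.4% of all probes were higher and 8.78% lower. This comparison shares its cerebellar fractions with the one above. Nhlh2 was 7.35-fold lower at the forebrain level (log2 difference -2.88, SE 0.32, limma adjusted p = 0.000152), Nhlh1 6.86-fold lower (-2.78, SE 0.29) and Insm1 2.18-fold lower (-1.13, SE 0.29, limma adjusted p = 0.0139). Sox11 was 2.19-fold higher (1.13, SE 0.26, limma adjusted p = 0.00898) and Dcx 1.99-fold higher (0.99, SE 0.19, limma adjusted p = 0.00368). Igfbpl1 (0.57, SE 0.27), Neurog2 (-0.86, SE 0.49) and the second Nhlh1 probe, A_55_P2058646 (-0.36, SE 0.51), were not called. The Insm1 value of 3.58 in fraction 12 reached the lowest value of the cerebellar end, and without fraction 11, or with the compared arrays alone, the Insm1 call was lost (limma adjusted p = 0.0553 and 0.0878). With the slide as a block none of the 8 genes was called by limma, with Nhlh1 at -2.65 and Nhlh2 at -2.91. With normexp Nhlh1 came to -1.13, and without fraction 1 Neurog2 was called (-1.39, adjusted p = 0.0487).

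Between the bulb end and the forebrain level no member was called. limma called 0 of the 8 genes, limma-trend 0, and 0 had an unadjusted p under 0.05, where 1.53% of all probes were higher and 1.75% lower at the bulb end. The differences were 0.13 (SE 0.19) for Dcx, -0.21 (SE 0.26) for Sox11, 0.26 (SE 0.27) for Igfbpl1 and -0.31 (SE 0.29) for Insm1. Nhlh1 differed by 0.03 (SE 0.29), Nhlh2 by -0.17 (SE 0.32) and Neurog2 by 0.51 (SE 0.49). In the same comparison 7 of the 11 olfactory bulb markers were higher and 6 of the 8 striatum markers lower.

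The cerebellar end and the fractions next to it were scanned on the same slide, so that fractions 1-3 and 4-6 could be compared within slide 2, a comparison added after the values had been seen. Of the 8 genes, 3 were higher at the cerebellar end and 0 lower at an adjusted p under 0.05, where 2.52% of all probes were higher and 2.03% lower. Nhlh1 was 3.79-fold higher (log2 difference 1.92, SE 0.29, limma adjusted p = 0.00828), Insm1 3.70-fold higher (1.89, SE 0.29, limma adjusted p = 0.00828) and Igfbpl1 2.73-fold higher (1.45, SE 0.27, limma adjusted p = 0.0161). The groups of 3 fractions did not overlap for any of these genes. Nhlh2 differed by 0.43 (SE 0.32), Sox11 by -0.11 (SE 0.26) and Dcx by -0.50 (SE 0.19), and none of them was called. The second Nhlh1 probe, A_55_P2058646, differed by 0.71 (SE 0.51), with overlapping groups, and was not called. Without coronal fraction 1, 2 or 5, or with the arrays of these 2 blocks alone in the fit, Igfbpl1 was not called, and in the latter fit none of the 8 genes was. With normexp the Nhlh1 difference was 1.15.

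**Figure D2:**
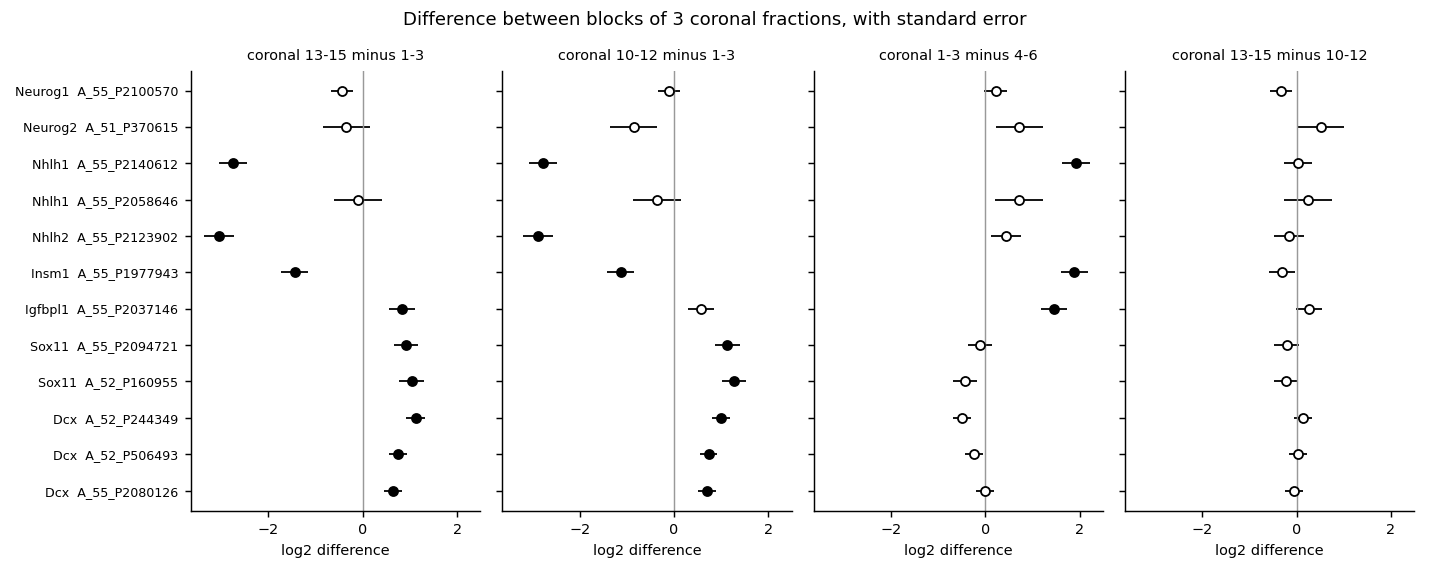
Log2 difference between blocks of 3 coronal fractions (x axis) for each of the 12 tested probes (y axis), with the standard error of the limma fit as a bar; filled points have an adjusted p under 0.05. Nhlh1 (first probe), Nhlh2 and Insm1 lie left of 0 against the cerebellar end while all Sox11 and Dcx probes lie right of it, and no probe is filled in the comparison of fractions 13-15 with 10-12.

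Genes of cell division were also higher at the cerebellar end. Of the 11 tested genes of a cell division list, 10 were higher in fractions 1-3 than in fractions 4-6 and 0 lower. Among all probes 2.52% were higher and 2.03% lower. The median log2 difference of the list was 1.45, against -0.01 over all probes. Top2a, a topoisomerase of dividing cells, was higher by 1.54 (SE 0.24, limma adjusted p = 0.00863) and Mcm3, a subunit of the replicative helicase, by 1.65 (SE 0.26). At the bulb end 8 of the 11 were lower than at the cerebellar end and 0 higher (median -1.05, against 0.10 over all probes), where 9.43% of all probes were lower and 15.3% higher. Against the forebrain level, where 1.53% of all probes were higher and 1.75% lower, the bulb end gave 0 calls on this list by limma. There 0 of the 11 had an unadjusted p under 0.05, with Top2a at -0.02 and Rrm2 at -0.10. The cerebellum marker list summed to between 167 and 219 in fractions 1-3 and to between 59.4 and 80.3 in fractions 4-6. Zic1 (mean 6.68 in fractions 1-3) and Pcp2 (5.46) added most to this sum. The granule cell progenitor gene Atoh1, also on the list, added little, so the sum does not follow it. Atoh1 averaged 1.13 in fractions 1-3 and -2.18 in fractions 4-6. The part of this list in these differences was not tested.

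Of the 18 other bHLH factors of neurogenesis and their partners, 3 were higher and 7 lower at the bulb end than at the cerebellar end (median -0.48), where 15.3% of all probes were higher and 9.43% lower. The share of higher genes was near that of all probes. Neurod1, a factor of granule cells and other young excitatory neurons, was lower at the bulb end than at the cerebellar end (log2 difference -1.40, SE 0.32, limma adjusted p = 0.00903) and higher there than at the forebrain level (1.34, SE 0.32, limma adjusted p = 0.0440). Id2, an inhibitor of bHLH factors, was higher at the bulb end in both comparisons, by 0.94 and 0.88. Bhlhe22 differed by 0.14 and -0.79 in them and was not called.

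In the Notch pathway, which holds progenitors back from differentiating, 2 of 23 genes were higher and 6 lower at the bulb end than at the cerebellar end (median -0.09), where 15.3% of all probes were higher and 9.43% lower. Against the forebrain level 1 was higher and 0 lower, beside 1.53% and 1.75% of all probes. At an unadjusted p under 0.05 there were 6 higher and 1 lower. The ligand Dll3 was lower than at the cerebellar end by a log2 difference of -1.05 (SE 0.19, limma adjusted p = 0.00252). Dll1, the ligand that proneural factors switch on, differed by -0.08 (SE 0.21). Heyl, an effector that is also active in vessel walls, was higher at the bulb end than in either block, by 1.62 and 1.70, with an SD of 1.12 among its 3 fractions. Hey2 differed by 0.92 and 1.71 and was not called.

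Of 31 other early neuron genes tested, 11 were higher and 5 lower at the bulb end than at the cerebellar end (median 0.28), beside 15.3% and 9.43% of all probes, and 1 was higher and 2 lower than at the forebrain level. Eomes, a T-box factor of excitatory progenitors and of mitral and tufted cells of the bulb, was higher at the bulb end than in either, by 1.78 (SE 0.58) and 3.32 (SE 0.58). Ebf1 (-4.01 and -2.25) and St18 (-2.74 and -1.53), transcription factors of differentiating neurons, were lower than in either. Myt1 differed by 0.20 and 0.64 and was not called. Among 15 genes of the neuroblasts that supply the olfactory bulb, 10 were higher and 1 lower at the bulb end than at the cerebellar end (median 2.08), and 1 was higher and 0 lower than at the forebrain level (median 0.52), where 5 were higher and 1 lower at an unadjusted p under 0.05. Of all probes, 15.3% were higher and 9.43% lower than at the cerebellar end. Against the forebrain level, where 1.53% of all probes were higher and 1.75% lower, Tshz1 was the gene called (1.44, SE 0.35). Sp8 (1.77, SE 1.01), Gad2 (-0.86, SE 0.23) and Dlx6 (-0.41, SE 0.35) were not called in that comparison. Against the cerebellar end Sp8 (6.70, SE 1.01) and Dlx6 (3.58, SE 0.35) were called, while Tshz1 (0.50, SE 0.35) and Gad2 (-0.14, SE 0.23) were not.

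Along the horizontal series 6 of the 9 genes were highest in fraction 4 on their main probe, Neurog2, Nhlh1, Nhlh2, Insm1, Igfbpl1 and Dcx. Neurog2 read -1.41 there, above -2.42 in fraction 5, -3.21 in fraction 3 and -4.67 in fraction 8. Nhlh1 read -2.05 on its main probe, above -2.67 in fraction 5 and -3.32 in fraction 3, and Nhlh2 read 0.36, above 0.04 in fraction 5. Insm1 (3.84), Igfbpl1 (3.04) and Dcx (5.39) were also highest in fraction 4, where Dcx was close to its 5.37 in fraction 3, the highest fraction of its other probes. Sox11 differed from them, with its highest value of 4.13 in fraction 1 and 2.87 in fraction 8. Neurog1 was lowest in fraction 4, at -4.88, and the second Nhlh1 probe, A_55_P2058646, was lowest there as well and not well above background. The peak of Nhlh1 thus rests on 1 of its 2 probes. Fraction 8 held the lowest value of Neurog2, Nhlh1, Insm1, Igfbpl1, Sox11 and Dcx, and Nhlh1 was not distinct from background there. From fraction 4 to fraction 8 Neurog2 fell 9.57-fold, Insm1 3.81-fold and Dcx 1.52-fold. Fractions 3 and 4 lay on slide 5 and the others on slide 1, so that the peak in fraction 4 was read on another slide than its neighbour below, and the part of the slide was not tested.

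Comparing horizontal fractions 1-3 with 6-8 gave no call for any member. Among all probes 0.422% were higher and 0.738% lower, limma called 0 of 8 genes, limma-trend 0, and 1 had an unadjusted p under 0.05. That gene was Sox11, with 4.13, 3.94 and 3.91 in fractions 1, 2 and 3 and 3.50, 3.50 and 2.87 in fractions 6, 7 and 8 (log2 difference 0.70, SE 0.19, limma adjusted p = 0.130). A second Sox11 probe, A_52_P160955, differed by 0.66 (limma adjusted p = 0.0858), and was called with limma-trend (0.0408) and with normexp (0.0440). A comparison of the ends of this axis leaves out fraction 4, where most members peaked. Of the other lists, 4 of 18 bHLH factors and 1 of 31 early neuron genes were higher in fractions 1-3, and 3 of 16 neuroblast genes lower.

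In the sagittal series the middle and the outer fractions were compared, and again no member was called. The middle fractions 5-7 were set against fractions 1-3 and 9-11, a test in which 3.59% of all probes were higher and 4.28% lower. limma called 0 of the 8 genes, limma-trend 1, and 3 had an unadjusted p under 0.05. Nhlh2 read -0.48, 0.24 and 0.04 in fractions 5, 6 and 7 and between -2.26 and -0.55 in the outer fractions (1.13, SE 0.36, limma adjusted p = 0.0824). The middle fractions of Nhlh2 stood above all 6 outer ones. Dcx read 4.92, 4.73 and 4.98 in the middle and between 4.99 and 5.43 outside (-0.35, SE 0.11, limma adjusted p = 0.0861). Sox11 was lowest in fraction 6, at 3.06, against 3.49 to 4.09 outside (-0.44, SE 0.14, limma adjusted p = 0.0873), with overlap between the groups. On main probes, Nhlh2 was the gene that limma-trend called (adjusted p = 0.0493), and the normexp setting called it too (0.0189), together with Neurog1 (-0.37, 0.0189). The other Dcx probes, A_55_P2080126 and A_52_P506493, were not called in the main fit. They were called with limma-trend (adjusted p = 0.0349 and 0.0471) and with normexp (0.0205 and 0.0297). The second Nhlh1 probe, A_55_P2058646, was called with normexp as well (-0.39, 0.0468). Without fraction 9 limma called Sox11 (-0.49, 0.0453) and the Dcx probe A_52_P506493 (-0.41, 0.0415).

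The outermost sagittal fractions stood apart for Insm1 and for the main probe of Nhlh1. The neurogenins did not share this. Neurog1 was highest in fraction 1, at -3.71, and Neurog2 read -4.19 in fraction 1 and -4.39 in fraction 11, beside -4.32 in fraction 2. Insm1 read 1.69 in fraction 1 and 1.63 in fraction 11, and between 2.54 and 3.22 in the other 9. Nhlh1 had no clear signal there on its main probe, which lay between -3.42 and -2.56 elsewhere, whereas its second probe, A_55_P2058646, was well above background in both, at -4.19 and -3.28. Nhlh2 was lowest in fraction 1, at -2.26, and was 3.79-fold lower in fraction 11 than in fraction 6. Dcx went the other way, with 5.43 in fraction 1 and 5.39 in fraction 11, its highest values of the series. Both of these fractions pool 2 cut fractions and lay on slides 3 and 5, away from the 8 sagittal fractions of slide 4.

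**Figure D3:**
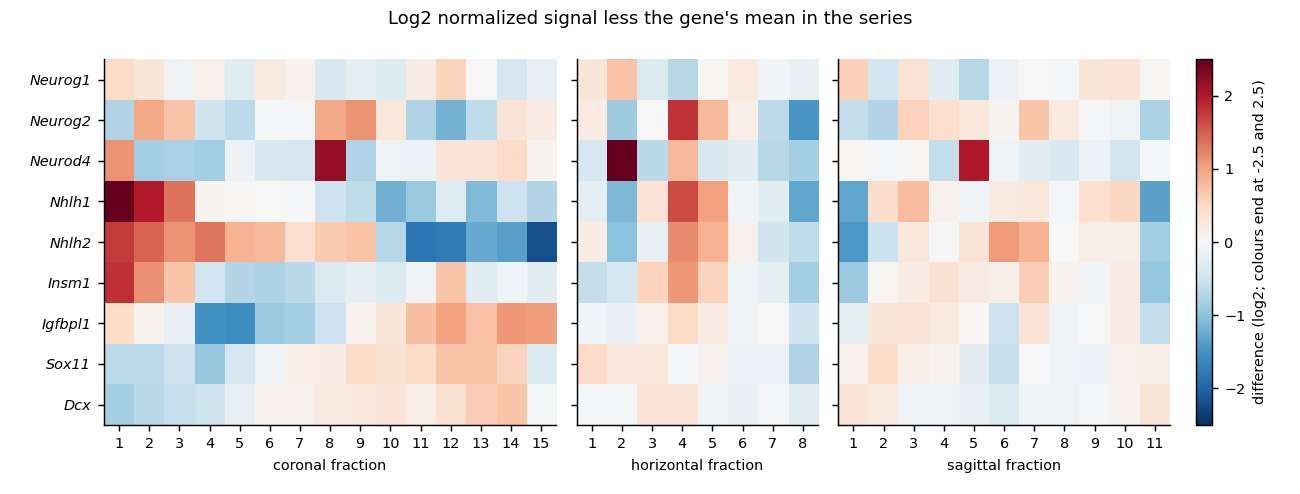
Log2 normalized signal of each gene's main probe less the gene's mean in that series, in every coronal, horizontal and sagittal fraction (x axes), with red above and blue below the mean and the colours ending at -2.5 and 2.5. Nhlh1, Nhlh2 and Insm1 are high in coronal fractions 1-3 and, with Neurog2, in horizontal fraction 4, and Neurod4 is high in a single fraction of each series.

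Set side by side over the 34 fractions, the members fell into pairs more than into a single group. Pearson's r, given as a description over fractions that share mice, slides and neighbours, was 0.80 between Nhlh1 and Insm1, 0.71 between Nhlh1 and Nhlh2, and 0.83 between Sox11 and Dcx. It was -0.58 between Nhlh1 and Dcx, and -0.57 between Nhlh2 and Dcx. Taken series by series, r for Nhlh1 with Insm1 was 0.76 coronal, 0.93 horizontal and 0.86 sagittal. For Sox11 with Dcx it was 0.92 coronal, 0.47 horizontal and 0.75 sagittal. The negative values turned positive in the horizontal series, at 0.66 for Nhlh1 with Dcx and 0.41 for Nhlh2 with Dcx, against -0.86 and -0.71 in the coronal series. The second Nhlh1 probe, A_55_P2058646, shared none of this, with r of 0.08 with Insm1, -0.23 with Nhlh2 and 0.02 with the main Nhlh1 probe. Neurog2 and Nhlh1 were alike along the horizontal axis (0.95) and not along the coronal axis (0.07). Igfbpl1 stood between the groups, at 0.49 with Insm1 and 0.46 with Sox11.

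**Figure D4:**
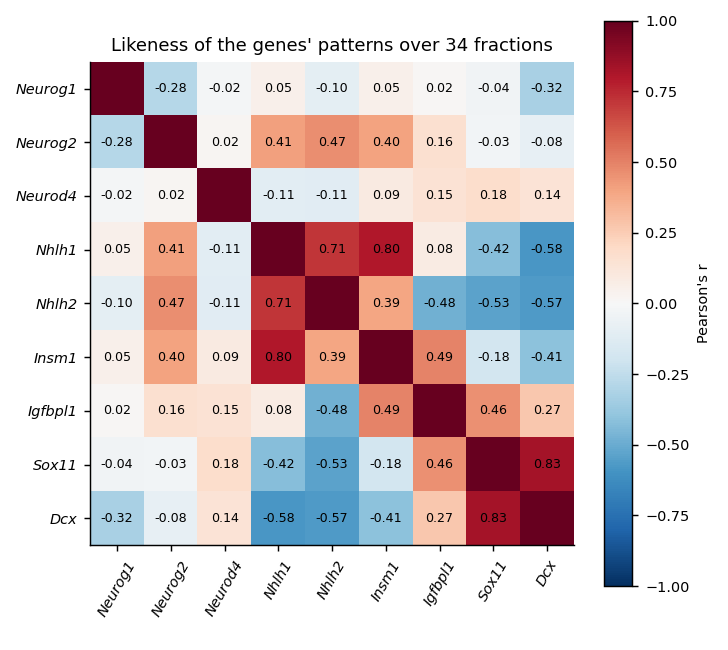
Pearson's r between the main probes of the 9 genes over the 34 fractions, printed in each cell, with the genes on both axes. Nhlh1 goes with Insm1 (0.80) and Nhlh2 (0.71), Sox11 goes with Dcx (0.83), and the Nhlh genes are negative with Sox11 and Dcx.

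The genes whose patterns were most like each member were sought among 15115 other named genes well above background in at least 17 of the 34 fractions. Those of Insm1 were Aspm (r = 0.92), Atad5 (0.90) and Ccnb1 (0.90). Aspm and cyclin B1 act in mitosis and Atad5 in DNA replication. Nhlh1 was most like Exo1 (0.90), an exonuclease of DNA repair, Arhgef33 (0.89) and Zfp385c (0.88). The nearest to Nhlh2 were Tmem132c (0.95), Pdlim3 (0.91) and Lhx1 (0.89), the last a homeodomain factor of Purkinje cells and other neurons. These nearest genes of Nhlh1, Nhlh2 and Insm1 all had higher mean signals in coronal fractions 1-3 than in fractions 13-15. Since they were chosen for likeness to members with that difference, this is no separate result.

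Dcx had as nearest genes Scube1 (0.95), Mpped1 (0.94) and Shtn1 (0.94), of which shootin, the product of Shtn1, takes part in axon outgrowth. Sox11 had Cd24a (0.93), a surface protein of young neurons, Neurod2 (0.91), a bHLH factor of forebrain excitatory neurons, and Rps6ka5 (0.91), a kinase. Those of Igfbpl1 were Ccnd2 (0.89), which encodes cyclin D2, Phc2 (0.89), a Polycomb subunit, and Cdca7 (0.88), a gene of dividing progenitors. For Igfbpl1 the likeness lay mainly in the coronal series, where the r values were 0.95, 0.96 and 0.95, against 0.25, 0.35 and 0.63 in the sagittal series. Neurog2 had no gene above 0.71, which Trp53inp1 reached, followed by Adamts19 and Scaf11 at 0.67. The best for Neurog1, which had no clear signal in several fractions, were Cldn4 (0.74), G6bos (0.72) and Olfr1402 (0.72).

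Neurod4 (A_51_P200203), a bHLH factor that acts with the neurogenins and in the retina, gave a clear signal in 3 of the 34 fractions, 1 in each brain. It read -4.70 in coronal fraction 8, -4.22 in horizontal fraction 2 and -5.07 in sagittal fraction 5. In the other 31 fractions it lay between -7.76 and -5.79, with a median of -7.15 and no fraction well above background. The arrays of the 3 fractions lay on different slides, 2, 1 and 4. No test was made, because the probe did not pass the filter in any series.

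The genes most like Neurod4 were highest in the same fractions. Their high values there follow from the choice, which was by likeness to a probe with a clear signal in 3 fractions. They were Pde6g (r = 0.74) and Pde6c (0.72), subunits of the photoreceptor phosphodiesterase, and Tulp1 (0.71), a protein of photoreceptors. Pde6g read 1.15 in coronal fraction 8, 1.89 in horizontal fraction 2 and 1.15 in sagittal fraction 5, against series medians of -3.48, -3.09 and -3.13. The pineal gland, a small body on the midline above the thalamus, shares many genes with photoreceptors. After these values had been seen, 22 genes of photoreceptors and of the pineal gland were looked up, of which 21 had a probe and 18 were well above background somewhere. Of the 21, 7 were highest in exactly those 3 fractions, namely Pde6g, Pde6c and Tulp1 again, and Tph1, Crx, Sag and Isl2. Tph1, the first enzyme on the path from tryptophan to serotonin and melatonin, read 1.94, 2.53 and 1.69 there, against the next highest values of -1.87, -0.58 and -0.80. Crx, a homeodomain factor of photoreceptors and pinealocytes, was well above background in the same 3 fractions as Neurod4 and in no other, at -3.62, -2.56 and -4.14. Aanat, also of the melatonin path, was highest in other fractions of the coronal and sagittal series. These genes were chosen with the values known and give a description. The share of all genes that were highest in those 3 fractions was not counted.

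**Figure D5:**
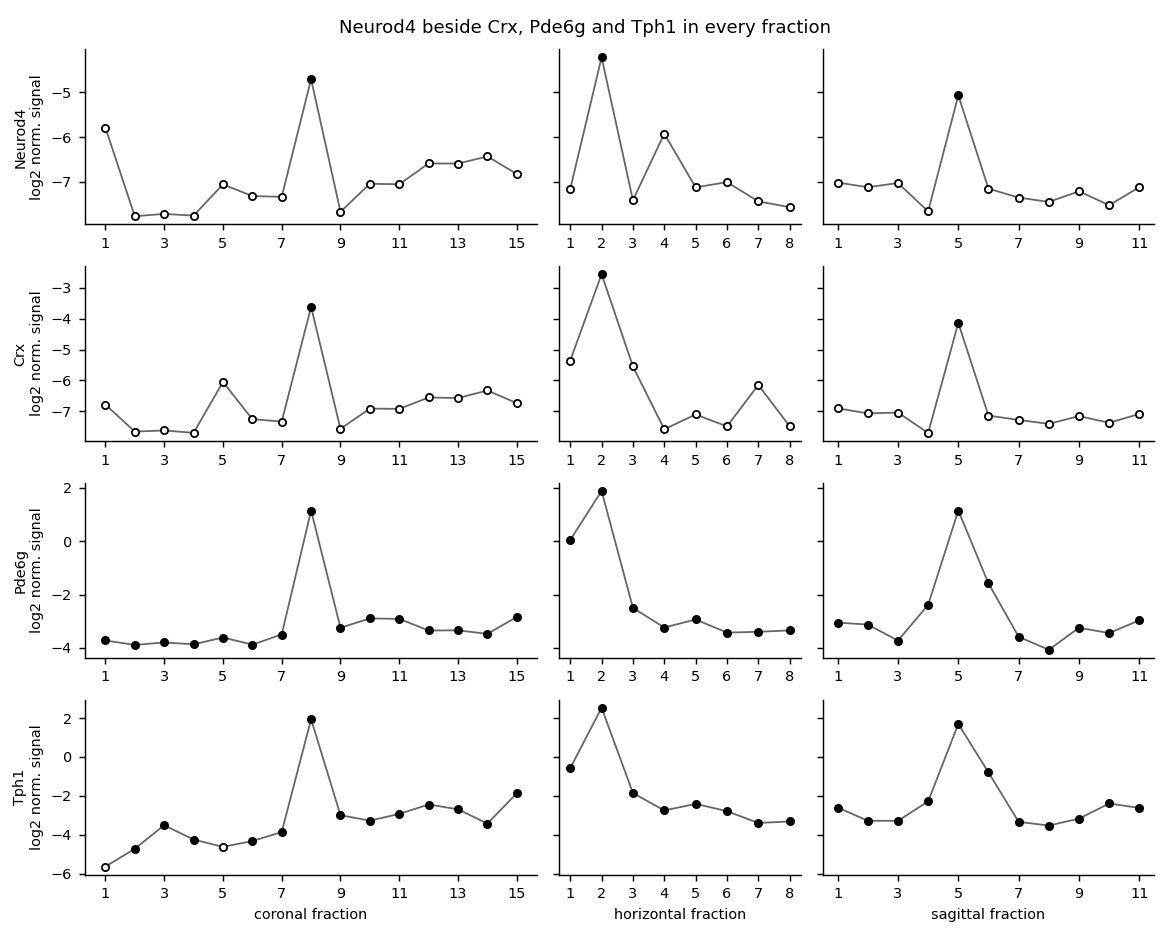
Log2 normalized signal (y axes, a range of its own for each gene) of Neurod4, Crx, Pde6g and Tph1 in each coronal, horizontal and sagittal fraction (x axes); filled points are well above background. All 4 genes are highest in coronal fraction 8, horizontal fraction 2 and sagittal fraction 5.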

How the data were processed

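Each fraction was measured on 1 Agilent SurePrint G3 Mouse GE array. The authors scanned the arrays with Agilent Feature Extraction 10.10.1.1 and deposited, per spot, intensity values (the median signal, the local background and a background-subtracted processed signal not scaled between arrays) with quality flags. The authors also deposited a log2 table scaled per chip, and 99.9% of its values equal the log2 of that processed signal minus an array constant, to a tolerance of 0.02. The array files annotate positions on mm9. Names came from the accessions in the array files through RefSeq (GRCm38.p6), used for names and promoter sequences alone.

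Here the spots of a probe were averaged without outlier spots and put on the log2 scale, and the array's log2 75th percentile was subtracted, for 55681 probes that are not controls. A probe was well above background where most of its spots were flagged so. A gene's main probe is the one with the highest median signal. Comparisons were fitted within a series by lmFit and eBayes of limma (3.58.1, R 4.3.3), over probes well above background in at least 3 fractions, with a Benjamini-Hochberg adjusted p under 0.05. The coronal fit held 5 blocks of 3 neighbouring fractions, the horizontal and sagittal fits 3 groups each. limma was tested on simulated data. Tables were made with Python 3.11.15, numpy 2.4.6 and pandas 2.3.3.

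Fractions of a block are neighbours from 1 mouse, so p-values measure the spread between positions and not between animals. The number of arrays limits the precision. The members and gene lists were chosen with earlier results of these data known. The genes named are all 9 members, the 3 genes most like each by Pearson's r, and of each list the 2 genes with the largest and the 2 with the smallest difference between coronal fractions 13-15 and 10-12, of which 1 gene is not reported here. Alternatives were the array's median, quantile normalization, a normexp background correction (offset 50, on the median signal), the deposited log2 values, other filters, limma-trend, a fit of the compared arrays alone, the slide as a block, and leaving out each fraction in turn. The comparison of coronal fractions 1-3 with 4-6 and the photoreceptor and pineal genes were added after seeing the data.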

Additional observations from a re-analysis of the deposited data

How the results depend on the processing

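The directions of the coronal differences against the cerebellar end held for the members that were called, and the counts of calls moved with the fit. With the slide as a block, the members called fell from 6 to 1 between coronal fractions 13-15 and 1-3 and from 5 to 0 between 10-12 and 1-3. Fitting the compared arrays alone left 0 of the 3 members called between fractions 1-3 and 4-6, with 0 of 1536 probes. All these counts of members rest on main probes. Between the sagittal middle and outer fractions 2 members were called with normexp and 1 with limma-trend in place of 0. Leaving out 1 fraction gave 0 to 1, the 1 without fraction 9. The cause was not tested.

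Over all probes, the 1107 calls between coronal 13-15 and 10-12 became 669 with normexp, 401 without the filter, 56 with the compared arrays alone and 573 with the slide block, and 152 (without fraction 11) to 3604 (without fraction 13) when 1 fraction was left out. The 8346 calls between 13-15 and 1-3 became 13687 without the filter, 1990 with the compared arrays alone and 237 with the slide block, and 5279 to 8431 with 1 fraction left out. The 8512 between 10-12 and 1-3 became 5053 and 26 in the last 2 of these fits, and 4843 to 8110 with 1 fraction left out. The 1536 between 1-3 and 4-6 became 577 without the filter, and 168 to 2628 with 1 fraction left out. The 374 horizontal calls became 811 with normexp, 0 without the filter, 623 with probes well above background in every fraction, 890 with limma-trend and 7 with the slide block, and 0 to 443 with 1 fraction left out. The 2601 sagittal calls became 8578 with normexp, 877 without the filter, 1423 with the compared arrays alone and 383 with the slide block, and 429 to 4163 with 1 fraction left out.

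The sign changes were among differences that were not called. With normexp Neurog1 went to 0.057 (13-15 less 10-12), 0.19 (13-15 less 1-3) and 0.14 (10-12 less 1-3), the Nhlh1 probe A_55_P2058646 to 0.23 (13-15 less 1-3) and 0.076 (10-12 less 1-3), and the Nhlh1 probe A_55_P2140612 to -0.16 in the sagittal series. With the slide block Igfbpl1 went to -0.38 (10-12 less 1-3), and in the horizontal series Insm1 to -0.039, Nhlh2 to -0.077 and Nhlh1 to -0.048, and in the sagittal series Nhlh1 to -0.40. Igfbpl1 went to 0.010 with quantile normalization in the sagittal series, and the Dcx probe A_55_P2080126 to 0.076 with the array median and 0.0081 with quantile normalization (1-3 less 4-6).

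With 1 fraction left out, the differences between 13-15 and 10-12 ran from -0.48 to 0.10 (A_52_P160955) and -0.42 to 0.11 (A_55_P2094721) for Sox11, from -0.010 to 0.36 (A_52_P244349), -0.11 to 0.29 (A_52_P506493) and -0.16 to 0.13 (A_55_P2080126) for Dcx, from -0.026 to 0.56 (A_55_P2058646) and -0.16 to 0.28 (A_55_P2140612) for Nhlh1 and from -0.36 to 0.19 for Nhlh2. Those of the Nhlh1 probe A_55_P2058646 ran from -0.38 to 0.21 between 13-15 and 1-3, and those of Neurog1 from -0.32 to 0.13 between 10-12 and 1-3. In the horizontal series they ran from -0.12 to 0.46 for Insm1, -0.029 to 0.51 for Neurog1, -0.25 to 0.35 for Nhlh2 and -0.13 to 0.63 for Nhlh1. In the sagittal series they ran from -0.25 to 0.18 for Igfbpl1 and from -1.32 to 0.012 (A_55_P2058646) and -0.023 to 0.40 (A_55_P2140612) for Nhlh1. Between 1-3 and 4-6 they ran from -0.19 to 0.11 for Dcx (A_55_P2080126) and from -0.35 to 0.087 for Sox11 (A_55_P2094721).

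No paired analysis was possible because equal fraction numbers of the 3 series name positions along different axes in different mice, and every comparison lies within 1 series. Signal over background limits Neurog1, Neurog2, Neurod4 and Nhlh1, whose differences between fractions near background were not resolved. The differences of the main Nhlh1 probe against the cerebellar end shrank with normexp and stayed called in that setting.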
